A study of Mus musculus with 9 samples.

Results

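Cholesterol synthesis was followed here through 8 genes: *Srebf2*, the transcription factor SREBP2 that switches the pathway on, *Insig1*, the sterol-sensing brake on that factor, and the enzyme genes *Hmgcs1*, *Idi1*, *Fdft1*, *Sqle*, *Lss* and *Cyp51*. They were taken by symbol, and all 8 were found among the 18193 genes that had a probe set paired with 1 gene, with 21 of the 45037 probe sets on the array. All 8 were bright enough to be among the 13644 genes tested. The study compared islets of 8-week-old male mice on Affymetrix Mouse Genome 430 2.0 arrays. KO mice (βRapKO) carried *Raptor* flox/flox alleles together with RIP-Cre, in which the rat insulin promoter drives Cre in beta cells, and WT mice were littermates with *Raptor* flox/flox alleles and no Cre, so both groups shared the floxed alleles and the Cre transgene itself was in the KO group alone. *Raptor* (gene symbol *Rptor*) encodes the scaffold of mTORC1, a growth-promoting kinase complex. The labels name the strain C57BL/6, while the methods give a mixed strain background for the RIP-Cre line. Each array held RNA pooled from the islets of 5 animals of 1 genotype, and there were 5 WT and 4 KO arrays. The question of the comparison was which transcripts change when beta cells lose mTORC1.

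SREBP2 is made as a membrane protein of the endoplasmic reticulum, where it is bound to the escort protein SCAP. When membrane sterol runs low the complex travels to the Golgi, site-1 and site-2 proteases release the transcription factor domain, and this domain turns on the genes of cholesterol synthesis. When sterol is plentiful INSIG proteins hold the complex back, and *Insig1* is itself a target of SREBP. In several cell types mTORC1 is known to promote SREBP activity, and beta cells need cholesterol for the plasma membrane and the membranes of insulin granules.

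All 8 genes had lower mean signals in KO than in WT islets, and *Insig1* and *Hmgcs1* fell by the test. The log2 differences (KO minus WT) ran from -0.17 for *Idi1* to -0.54 for *Insig1*, with a median of -0.34. Over all tested genes the median was 0.04, and 43.8% of them were lower in KO islets. A gene was called at a limma adjusted p under 0.05, with the adjustment over all 13644 genes. By this rule 2 of the 8 fell and none rose, while 6.30% of all tested genes were called, 2.63% as lower and 3.67% as higher in KO islets. With each array centred on its median, 45.1% of called genes were higher in place of 58.3%, and the median of the 8 genes was -0.38. The same 2 genes had all 4 KO values below all 5 WT values, a pattern seen in 5.05% of tested genes (7.43% had the opposite one, all KO values above). At an unadjusted p under 0.05, 5 of the 8 were lower, against 8.43% of all tested genes (21.8% in either direction), and none of the 8, each read by its brightest probe set, changed by the study's threshold of 1.5-fold with that p, which 9.18% of tested genes passed (a dimmer probe set of *Idi1* did pass it).

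**Figure D1:**
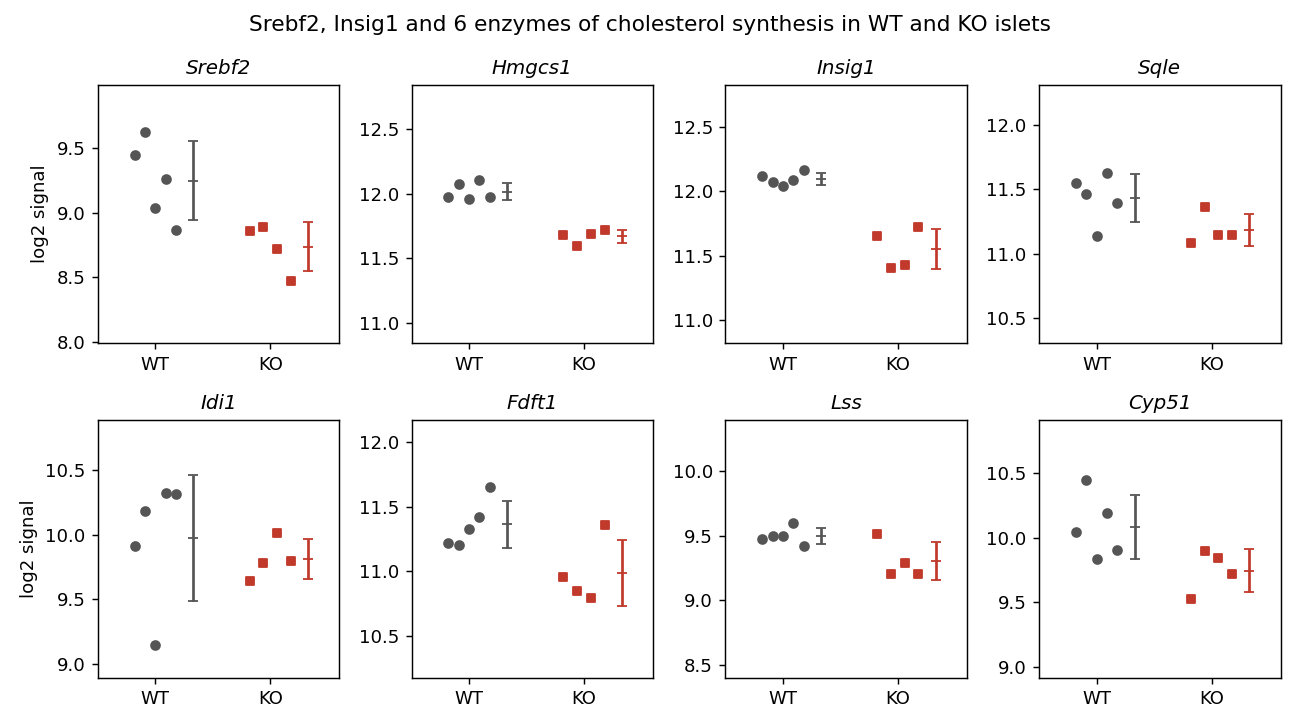
Log2 signal of the 8 genes in each WT (grey circles, 5 arrays) and KO (red squares, 4 arrays) pool, with a bar at each group mean and whiskers of 1 SD; every vertical axis spans the same log2 range. *Insig1* and *Hmgcs1* have no KO value above a WT value, whereas the groups of the other 6 genes overlap.

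*Insig1* read 12.12, 12.07, 12.04, 12.08 and 12.16 in the WT arrays and 11.65, 11.41, 11.43 and 11.72 in the KO arrays. The WT values lay within a narrow band, and the highest KO value was well below it. The group values were 12.10 ± 0.05 (SD, n = 5) and 11.55 ± 0.16 (SD, n = 4), so KO islets were 1.46-fold lower (log2 difference -0.54 ± 0.09 SE, limma adjusted p = 0.0114). Leaving out any 1 of the 9 arrays kept the call (limma adjusted p between 0.0161 and 0.0407). The array held 1 probe set for this gene.

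*Hmgcs1* encodes the cytosolic HMG-CoA synthase, which makes HMG-CoA from acetyl-CoA and acetoacetyl-CoA at the entry of the pathway. Its WT signals were 11.98, 12.07, 11.96, 12.10 and 11.97, against KO signals of 11.68, 11.59, 11.69 and 11.72. Both groups were tight, and every KO value was lower than every WT value. With means of 12.02 ± 0.07 and 11.67 ± 0.05, KO islets were 1.27-fold lower (log2 difference -0.35 ± 0.07 SE, limma adjusted p = 0.0303). The call was near the threshold and was lost without WT replicate 1, 2 or 4 or any of the 4 KO replicates (limma adjusted p up to 0.0856), whereas the difference stayed between -0.36 and -0.32.

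*Srebf2* itself did not pass the test. WT arrays gave 9.45, 9.63, 9.04, 9.26 and 8.87, and KO arrays 8.86, 8.89, 8.72 and 8.47. The groups met at one edge, where the lowest WT array lay between the 2 highest KO arrays. The means of 9.25 ± 0.31 and 8.73 ± 0.19 lay 1.43-fold apart (log2 difference -0.51 ± 0.17 SE, limma adjusted p = 0.111, unadjusted p = 0.0139). A second probe set of the gene read 9.17 ± 0.20 and 8.75 ± 0.38, a difference of -0.42 ± 0.20 (SE). The difference of the means was close to that of *Insig1*, with a wider spread between WT pools.

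The promoters of the genes at the centre of this comparison are shown because SREBP proteins act at such sites together with the CCAAT-binding factor NF-Y and the GC-box factor Sp1. The 250 bases before the gene start are given 5′ to 3′ on the plus strand, from RefSeq on GRCm38.p6, and capitals mark CCAAT boxes (CCAAT on either strand, so ATTGG on the strand shown) and an 8-letter core of the sterol regulatory element, TCACNCCA. The windows are chr5:28071162-28071411 for *Insig1*, chr13:119690101-119690350 for *Hmgcs1* and chr15:82147019-82147268 for *Srebf2*.
Insig1: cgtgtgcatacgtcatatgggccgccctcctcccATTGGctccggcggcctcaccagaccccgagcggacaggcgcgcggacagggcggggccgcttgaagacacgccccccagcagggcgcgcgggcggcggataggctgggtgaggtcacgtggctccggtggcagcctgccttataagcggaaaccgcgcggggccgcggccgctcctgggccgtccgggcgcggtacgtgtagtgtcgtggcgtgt
Hmgcs1: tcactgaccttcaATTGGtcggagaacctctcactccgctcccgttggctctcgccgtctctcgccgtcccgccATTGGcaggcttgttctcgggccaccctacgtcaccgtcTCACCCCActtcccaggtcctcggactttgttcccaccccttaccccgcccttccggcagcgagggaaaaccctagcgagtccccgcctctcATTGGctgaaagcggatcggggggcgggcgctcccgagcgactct
Srebf2: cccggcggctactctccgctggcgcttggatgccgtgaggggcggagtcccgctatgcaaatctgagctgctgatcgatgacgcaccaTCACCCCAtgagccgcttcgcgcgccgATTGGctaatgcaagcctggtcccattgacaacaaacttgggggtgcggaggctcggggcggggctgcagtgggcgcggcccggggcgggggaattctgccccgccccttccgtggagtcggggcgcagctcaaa

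RefSeq windows of 300 bases (250 before and 50 after the gene start) were at hand for 6 of the 8 genes, namely *Srebf2*, *Hmgcs1*, *Insig1*, *Idi1*, *Lss* and *Cyp51*. Each of the 6 held a CCAAT box, as did 37.4% of all 32851 windows (41.1% of genes with a window). Each also held a GC box (GGGCGG on either strand), which 35.7% of all windows held. The CCAAT box lay 216 bases before the start in *Insig1* and 135 in *Srebf2*, and *Hmgcs1* had 3 of them upstream, 237, 176 and 45 bases before the start. The 9-letter element TCACNCCAC, searched on both strands and holding the shorter core, occurred in *Hmgcs1* alone among the 6, 137 bases before the start, and in 1.24% of all windows. The 8-letter core, chosen after the sequences had been seen, was also found in *Srebf2*, 162 bases before the start, and in 4.36% of all windows. None of the 6 held the longer form of the element with a further A in front (0.234% of windows), and an E-box (CACGTG, 7.15% of windows) occurred only in *Insig1*. Across the 18 tested enzymes of the whole pathway, 15 had a window and all 15 held a CCAAT box. These matches are letters in a window and were not measured as bound sites.

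The remaining 5 enzyme genes were lower in the mean but did not pass the test. *Fdft1*, squalene synthase, commits isoprenoid units to sterols and differed by -0.38 ± 0.14 (SE) on the log2 scale (limma adjusted p = 0.168). Its WT arrays read 11.22, 11.21, 11.33, 11.42 and 11.65 and its KO arrays 10.95, 10.85, 10.79 and 11.36, so 3 KO values lay below all WT values and KO replicate 4 among them. *Cyp51*, the cytochrome P450 that removes a methyl group from lanosterol, differed by -0.34 ± 0.14 (limma adjusted p = 0.210), from 10.04, 10.45, 9.83, 10.20 and 9.90 to 9.53, 9.90, 9.84 and 9.72. Here the KO values overlapped the lower WT values.

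*Sqle*, squalene epoxidase, is a rate-limiting enzyme of the sterol branch and differed by -0.25 ± 0.12 (limma adjusted p = 0.260). The WT arrays gave 11.55, 11.46, 11.13, 11.62 and 11.39 and the KO arrays 11.09, 11.36, 11.15 and 11.14. *Lss*, lanosterol synthase, which folds squalene epoxide into the first sterol ring system, differed by -0.20 ± 0.09 (limma adjusted p = 0.253). WT arrays gave 9.48, 9.50, 9.50, 9.60 and 9.42, and KO arrays 9.51, 9.20, 9.29 and 9.21. In both genes 1 array broke the separation, WT replicate 3 for *Sqle* and KO replicate 1 for *Lss*.

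*Idi1*, the isomerase that makes the reactive isoprenoid unit, gave different pictures in its 2 probe sets. The brighter one, which stood for the gene, read 9.91, 10.18, 9.15, 10.32 and 10.31 on WT arrays and 9.64, 9.78, 10.01 and 9.80 on KO arrays (log2 difference -0.17 ± 0.24 SE, limma adjusted p = 0.749). WT replicate 3 was the lowest of all 9 arrays there, and without it the difference was -0.37 ± 0.13 (limma adjusted p = 0.140), whereas without WT replicate 4 or 5 it was -0.080 or -0.082. The dimmer probe set read 8.66, 8.68, 8.25, 8.13 and 8.42 on WT arrays and 7.85, 7.62, 7.57 and 7.65 on KO arrays, with no overlap. It differed by -0.76 ± 0.16 (SE), or 1.69-fold lower, with limma adjusted p = 0.0924 over all 45037 probe sets. After averaging of both, *Idi1* differed by -0.46 (limma adjusted p = 0.172).

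**Figure D2:**
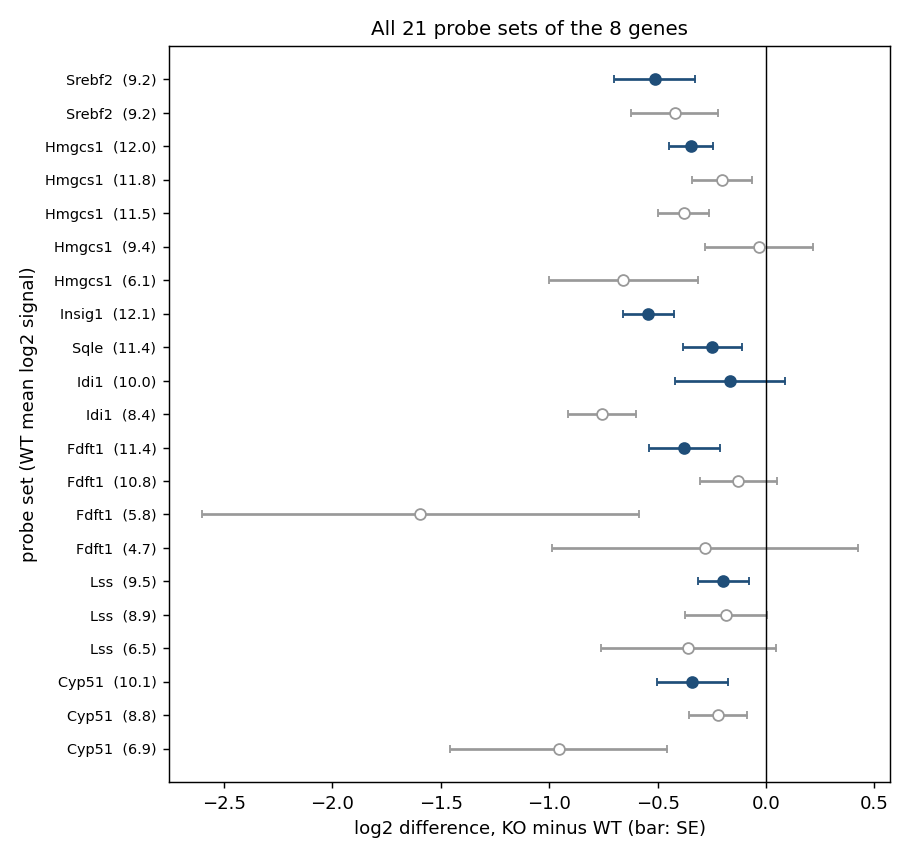
Log2 difference (KO minus WT) with SE for each of the 21 probe sets of the 8 genes, fitted over all probe sets; filled blue points are the brightest probe set of a gene, open grey points the others, and the number in parentheses is the mean WT log2 signal. All 21 points lie below 0, from -0.03 to -1.59, and the widest bars belong to dim probe sets.

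All 21 probe sets had lower means in KO islets, in a fit over all 45037 probe sets. Several probe sets read 1 transcript in the same 9 RNA pools, so these are not independent observations. No probe set passed the adjusted threshold with limma in that larger fit, where *Insig1* had an adjusted p of 0.102 and the brightest *Hmgcs1* probe set 0.217, and 244 probe sets of the whole table did. An unadjusted limma p under 0.05 in either direction was reached by 6 of the 21, all of them lower, against 11.8% of all probe sets. The share of all probe sets that were lower was not counted. The methods' t-test with Benjamini-Hochberg adjustment called 2 of the 21, those of *Hmgcs1* and *Insig1*, and 555 in the whole table. The second bright probe set of *Hmgcs1* differed by -0.20 ± 0.14 (SE), the third by -0.38 ± 0.12 without overlap, and the fourth by -0.03 ± 0.25. The brightest probe sets of *Hmgcs1* and *Fdft1* are of the type marked x, some of whose probes can also match other transcripts. The second *Fdft1* probe set, which carries no such mark, differed by -0.13 ± 0.18 (SE).

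**Figure D3:**
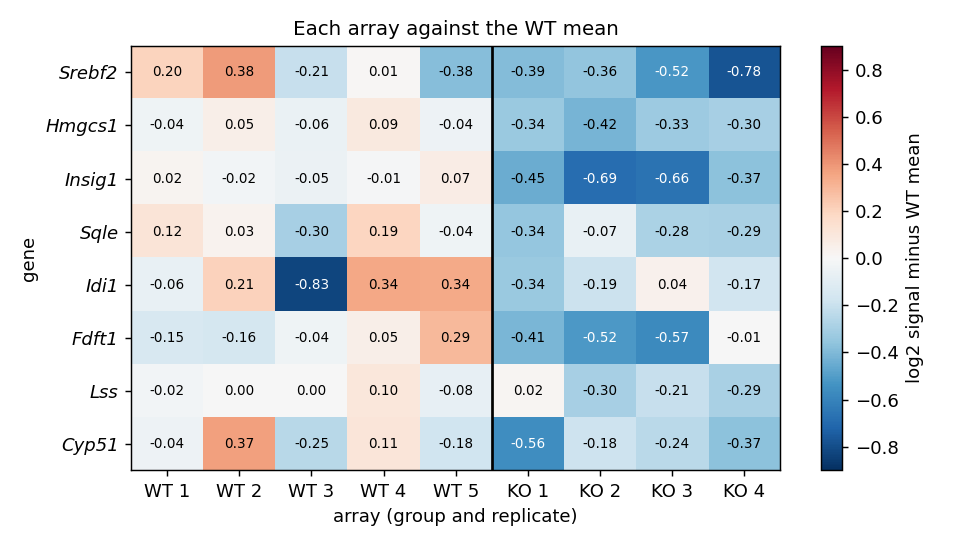
Log2 signal of each gene in each array minus the mean of the 5 WT arrays of that gene; blue is lower and red higher than the WT mean, and the line parts WT from KO arrays. Every KO cell is below 0 except *Lss* in replicate 1 and *Idi1* in replicate 3, and WT replicate 3 stands out for *Idi1* at -0.83.

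Array by array, the shift of the 8 genes together was similar in the 4 KO pools. The mean of their deviations from the WT mean was -0.35, -0.34, -0.35 and -0.32 in KO replicates 1 to 4, and 0.00, 0.11, -0.22, 0.11 and 0.00 in the WT replicates. The 12 tested enzymes of the pathway that are not among the 8 did not follow this: their mean deviation was -0.36, -0.017, -0.036 and -0.30 in KO replicates 1 to 4, and ran from -0.18 to 0.21 in the WT replicates. The genes that made up the shift of the 8 differed between pools. *Insig1* and *Fdft1* were lowest in KO replicates 2 and 3 (-0.69 and -0.66, and -0.52 and -0.57), *Srebf2* in replicate 4 (-0.78) and *Cyp51* in replicate 1 (-0.56). Among the WT arrays replicate 3 was the lowest for *Sqle*, *Idi1* and *Cyp51*.

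The other enzymes of the route were measured for comparison. From HMG-CoA synthase to the last reductase 18 enzymes were tested, 6 of which are among the 8 genes. In this group 1 fell (*Hmgcs1*), none rose, and 16 of 18 were lower in the mean, with a median log2 difference of -0.21. Of all tested genes 2.63% were called lower and 43.8% were lower in the mean. The 12 that are not among the 8 had a median of -0.14, and limma called none of them, with 2 at an unadjusted p under 0.05, both lower. Of all tested genes 8.43% were lower at that p, and 21.8% reached it in either direction. With the brightest probe set of each gene, the lowest difference among these 18 was that of *Tm7sf2*, a sterol reductase, with means of 8.96 ± 0.18 and 8.40 ± 0.27 (-0.56 ± 0.15 SE, limma adjusted p = 0.0570). *Msmo1*, which oxidises the methyl groups of sterols, differed by -0.44 ± 0.17 (limma adjusted p = 0.174) in its brightest probe set and by -1.65 ± 0.44 (limma adjusted p = 0.0978) after averaging of its probe sets.

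The early mevalonate enzymes *Mvk*, *Pmvk*, *Mvd* and *Fdps* differed by -0.14, -0.04, -0.27 and -0.23 (log2), with SEs between 0.20 and 0.33. Single arrays moved these values: *Mvd* ran from -0.38 to -0.11 and *Fdps* from -0.40 to -0.054 with 1 array left out, both nearest 0 without KO replicate 4. *Lbr*, *Nsdhl*, *Sc5d* and *Hsd17b7* were also lower in the mean, by -0.13, -0.15, -0.11 and -0.46. The exceptions were *Ebp* (0.05 ± 0.10) and *Dhcr7*, the reductase of the final step (0.36 ± 0.20, limma adjusted p = 0.342). *Dhcr7* read between 8.02 and 9.09 in WT and between 8.71 and 9.08 in KO islets, so the ranges overlapped.

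**Figure D4:**
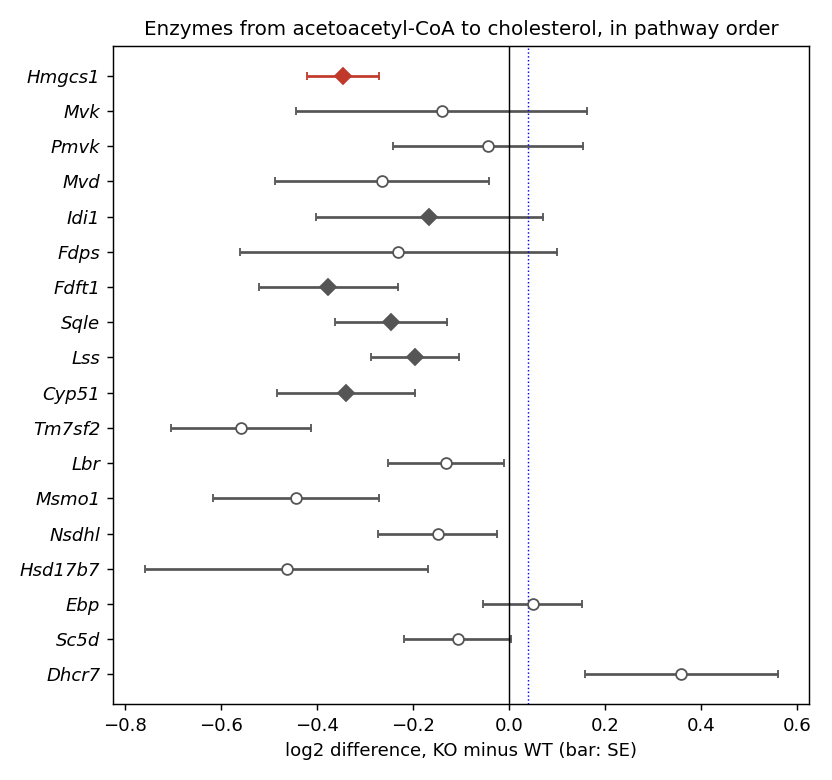
Log2 difference (KO minus WT) with SE for 18 enzymes in the order of the pathway from top to bottom; diamonds are enzymes among the 8 genes, circles the other enzymes, red marks a limma adjusted p under 0.05, and the dotted line is the median of all tested genes (0.04). All but *Ebp* and *Dhcr7* lie left of 0, and *Hmgcs1* alone is red.

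Of 11 tested genes listed for SREBP processing and sterol sensing, *Srebf2* included, 7 were lower in the mean and 4 higher in KO islets. *Insig1* and *Srebf1* fell, *Lpin1* rose, and the other 8 were not called. *Srebf1*, which encodes the sister factor SREBP1 of fatty acid synthesis, went from 11.28 ± 0.14 to 10.74 ± 0.14 without overlap (-0.54 ± 0.10 SE, limma adjusted p = 0.0206), and this call was lost without KO replicate 1, 2 or 3 (limma adjusted p up to 0.0705). *Insig2*, the other INSIG gene, differed by -0.06 ± 0.10, *Scap* by -0.17 ± 0.10, and the protease genes *Mbtps1* and *Mbtps2* by 0.11 ± 0.09 and 0.00 ± 0.14. *Lpin1*, whose product lipin 1 is a phosphatidate phosphatase and a substrate of mTORC1, read 11.06, 11.36, 11.09, 10.95 and 11.09 on WT arrays and 12.29, 11.79, 12.24 and 12.01 on KO arrays. It was 1.97-fold higher without overlap (log2 difference 0.97 ± 0.13 SE, limma adjusted p = 0.00447), and the call held with any 1 array left out. It was lost with the stromal marker mean as a covariate (1.06, limma adjusted p = 0.217).

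Genes that bring in, move or export cholesterol went in both directions. Of 9 uptake and transport genes *Vldlr*, a lipoprotein receptor, fell from 10.78 ± 0.30 to 9.98 ± 0.21 (1.74-fold, limma adjusted p = 0.0291), and none rose. That call was lost without WT replicate 1 or any of the KO replicates (limma adjusted p up to 0.0843). *Stard4* and *Tmem97*, which like the 8 genes are known SREBP2 targets, differed by -0.33 ± 0.11 (limma adjusted p = 0.108) and -0.41 ± 0.15 (limma adjusted p = 0.133). Of the 9 genes, 5 were higher and 4 lower in the mean, with a median of 0.10. Among those not called, the lowest p was that of *Lrp1*, which was higher in KO islets (0.64 ± 0.19 SE, limma adjusted p = 0.0810). *Stard4*, *Tmem97* and *Lrp1* are named here after their values were seen.

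Of 6 genes of the sterol-activated receptor LXR and of efflux, *Abcg1*, a sterol exporter also found in insulin granules, fell 1.36-fold (-0.44 ± 0.09 SE, limma adjusted p = 0.0261), and *Apoe*, the apolipoprotein, rose 1.81-fold (0.86 ± 0.19 SE, limma adjusted p = 0.0323). After averaging of its probe sets *Abcg1* differed by only -0.10 (limma adjusted p = 0.787). Its call was also lost without WT replicate 1 or 2 or any KO replicate, and that of *Apoe* without WT replicate 1, 2, 3 or 5 or KO replicate 1, 2 or 3. None of 6 genes of cholesterol esters and oxysterols was called by limma, 2 had an unadjusted p under 0.05, and the lowest p was that of *Cyp7b1*, an oxysterol hydroxylase (0.43 ± 0.11 SE, limma adjusted p = 0.0589). None of 8 genes of the non-sterol branches was called by limma either, 1 had an unadjusted p under 0.05, and it was *Dhdds*, which makes dolichol precursors (0.58 ± 0.19 SE, limma adjusted p = 0.107).

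**Figure D5:**
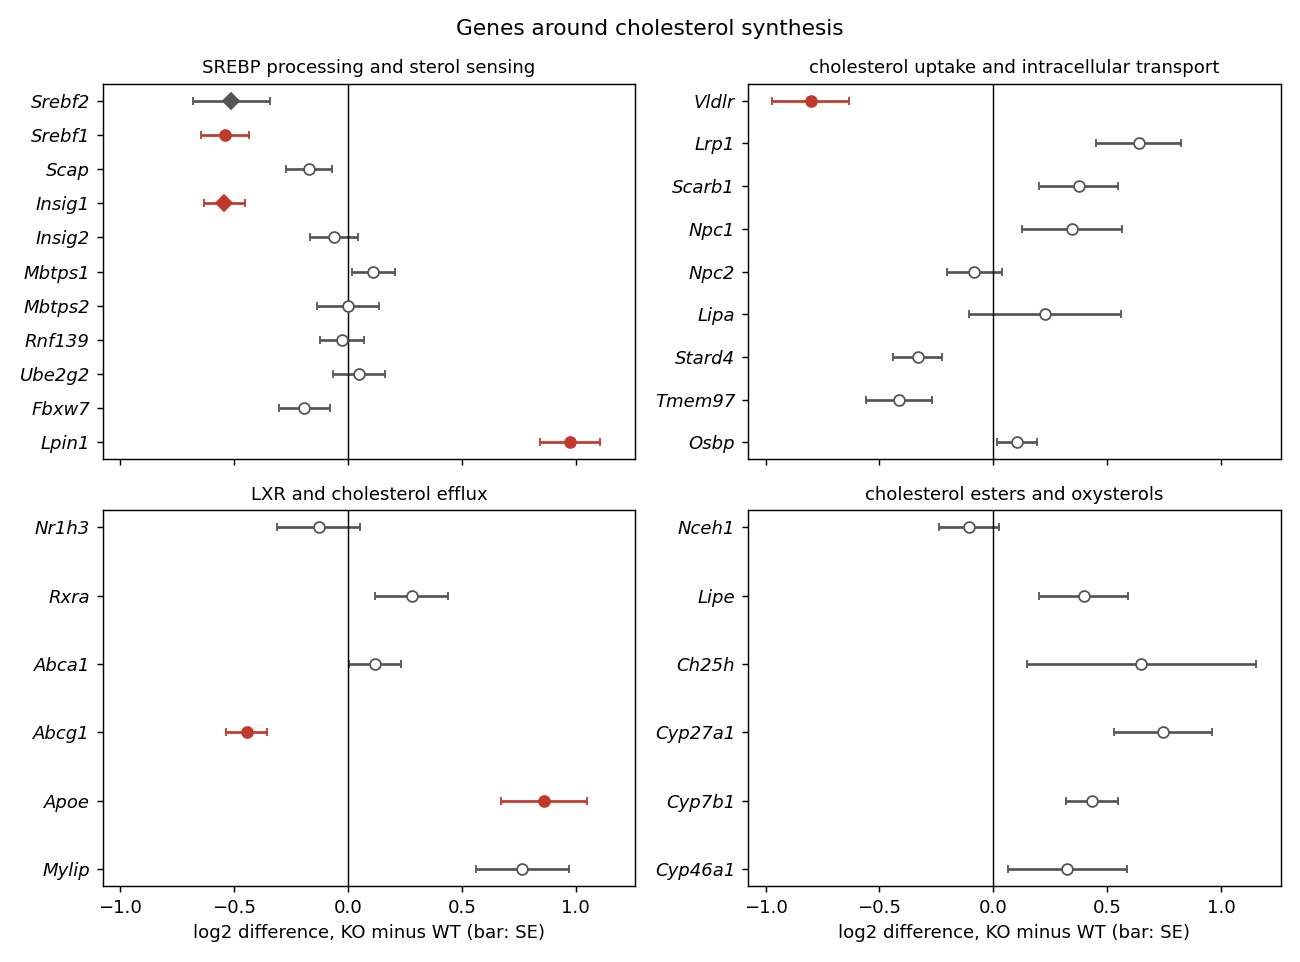
Log2 difference (KO minus WT) with SE for tested genes of 4 groups around cholesterol synthesis; diamonds are *Srebf2* and *Insig1*, and red marks a limma adjusted p under 0.05. The red points are *Srebf1*, *Insig1* and *Lpin1* in the upper left panel, *Vldlr* in the upper right, and *Abcg1* and *Apoe* in the lower left.

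The genes most like *Srebf2* over the 9 arrays were *Hnmt*, *Ctnnbip1*, *Enpp5*, *Pkn2* and *Plppr4*. Likeness was the root mean square distance between values centred on each gene's own mean, and it lay between 0.09 and 0.14 (log2) for these 5. The nearest of the other 7 genes to *Srebf2* was *Cyp51*, at 0.20, and the farthest *Idi1*, at 0.42. The genes most like the mean of the other 7 were *Larp4b*, *Pstpip2*, *Akirin1*, *Bag2* and *Asah1*, at distances from 0.05 to 0.07, with log2 differences between -0.35 and -0.29. Their lower KO values follow from how they were chosen, since the profile they were matched to was itself lower in KO islets.

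The level of *Rptor* and the make-up of the islets are given beside these values. *Rptor* fell from 9.47 ± 0.21 to 8.75 ± 0.32 without overlap (1.64-fold, limma adjusted p = 0.041), a call lost in 7 of the 9 fits with 1 array left out. Its dimmer probe sets differed by -0.41 ± 0.60 and 0.65 ± 0.63 (SE), the average of its probe sets differed by -0.16 ± 0.38, and where the probes lie relative to the deleted part was not known here. Islets are mixed, and fewer cells of a type cannot be told apart from less RNA per cell in such samples. By staining at the same age, the paper reports lower beta cell mass and fewer insulin-positive cells per islet. It also reports weaker staining for the beta cell proteins UCN3 and GLUT2 (gene *Slc2a2*). The mean of 8 beta cell markers was 13.94 ± 0.07 in WT and 13.32 ± 0.08 in KO islets, and no KO array reached a WT array. The exact two-sided permutation p was 0.00794, the lowest possible with 126 splits, and 0.0238 adjusted over 9 cell types. All 8 markers were lower in the mean and limma called 5, with *Slc2a2* the lowest at -1.33. The hormone genes *Ins2* and *Iapp* differed by only -0.05 and -0.12 (limma adjusted p = 0.881 and 0.463), so the measured signals did not fall evenly. Their WT means, 14.15 and 15.35, were high on arrays whose brightest probe sets read 15.16 to 15.56. A fall can be compressed near that limit, so these values need not show how far the hormone transcripts changed. Of 12 stromal markers 11 were higher in KO islets and 6 were called, their summed log2 level was 13.3 to 14.2 in WT and 14.3 to 15.0 in KO arrays, and none of them was at 0. The mean over the markers was also higher in every KO than in every WT array for endothelial cells (by 0.27 log2) and delta cells (by 0.45), each with exact permutation p = 0.00794, and for ductal cells (by 0.92, exact permutation p = 0.0159, as for the stromal markers). Schwann cell markers differed by 0.74 (exact permutation p = 0.0476), macrophage and alpha cell markers by 0.23 and 0.16 (exact permutation p = 0.127 each) and acinar markers by -0.42 (exact permutation p = 0.730). The delta, ductal and Schwann means each rested on 3 tested genes, which did not move together. *Sst* differed by -0.04, *Krt7* by 0.11 and *Sox10* by -0.05 (limma adjusted p = 0.850, 0.528 and 0.974). *Sst*, with a WT mean of 15.21, was also near the upper limit of signal. Limma called *Hhex* among the delta markers and *Cdh19* among the Schwann markers as higher, and no ductal or endothelial marker. The mean of 9 acinar markers ranged from 8.38 to 13.18 over the arrays of both groups.

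Within the WT group *Srebf2* was highest in replicates 1 and 2, whose stromal means were the lowest (8.32 and 8.31), and lowest in replicate 5, whose stromal mean was the highest (9.30). The 8 genes did not share this order. *Insig1* and *Fdft1* had their highest WT values in replicate 5 (12.16 and 11.65). Within the KO group no such order was seen for *Srebf2*: the stromal means of replicates 1 to 4 were 10.26, 9.92, 9.62 and 10.04, and *Srebf2* was lowest in replicate 4. With the stromal mean as a covariate *Srebf2* differed by 0.086 ± 0.25 (SE), *Cyp51* by 0.18 ± 0.21, *Insig1* by -0.66 ± 0.18 and *Hmgcs1* by -0.28 ± 0.15, and none of the 8 was called, but the median SE of all genes was then 1.85 times as large. The part of other cells in these differences was not tested. With the acinar mean as a covariate all 8 stayed lower, with a median of -0.34.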

How the data were processed

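RNA was pooled from the islets of 5 animals per sample, labelled as biotinylated cRNA and hybridised to Affymetrix arrays. The authors deposited 1 log2 signal per probe set and array. The methods name Genespring, whereas how probes were summarised and scaled is not given in the sources used here. Deposited log2 values show linear signals scaled to a common trimmed mean (between 497.1 and 497.7 on every array), with 43 to 107 values per array set to a floor of 1. They were used with no further normalization.

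Probe sets were named through the platform annotation: 34945 had 1 gene, 932 several and 9160 none here. The brightest probe set stood for a gene, and the lowest 0.25 of genes by mean signal was left out. The fit of KO against WT used limma 3.58.1 and R 4.3.3 (two-sided, no covariate, Benjamini-Hochberg adjustment, threshold 0.05), and marker means were compared over the 126 splits of the arrays (exact permutation test, two-sided). limma was tested on simulated data of 13644 genes on 5 and 4 arrays, where it recovered 21 of 58 shifts of 0.58 (log2), 48 of 71 shifts of 1.00 and 69 of 71 shifts of 2.00, and 7 of its 145 calls were false. The simulated noise was drawn independently for each gene, so variation that genes share within a pool was absent. These shares therefore need not hold for the real arrays. Precision is limited by the number of arrays, p-values measure only how pools vary, and arrays correlated with each other at 0.928 to 0.959.

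Alternatives were other filters, averaged probe sets, median centring, quantile normalization, the methods' t-test, the replicate number as a block, marker means as covariates and leaving out 1 array each. Members and lists were chosen with earlier results of these data known. Genes named in the text are the 8 genes, *Rptor*, all tested enzymes of the pathway, up to 4 called genes of each related list or else the one with the lowest p, and the 5 genes most like *Srebf2* and the 5 most like the mean of the other 7; other names are said to be chosen after their values were seen or illustrate a list. Of 21 listed enzymes 3 were not analysed here. Promoter sequences came from RefSeq, and those of *Sqle* and *Fdft1* were not analysed here.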

Additional observations from a re-analysis of the deposited data

Results flagged for a closer look

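Outliers were sought in 76 groups of values, those of the 8 genes and of the genes named by the rule given above. Genes named after their values were seen or to illustrate a list were not screened. Of the 76 groups, 2 held an array whose gap to its nearest neighbour was large against the range of its group by Dixon's criterion. Chance alone gives about 1 such group in 20. For *Hsd17b7*, an enzyme of the sterol branch, KO replicate 1 read 6.08 while the nearest KO array read 7.36 (0.850 of the range), and without that array the difference of *Hsd17b7* was -0.11 in place of -0.46. For *Apoe*, WT replicate 4 read 10.34 while the nearest WT array read 9.88 (0.724 of the range), and the KO arrays all lay above it. No array of the 8 genes met the criterion.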

How the results depend on the processing

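All 8 genes kept a negative difference under each alternative except the stromal covariate, where 4 did. The main fit called 501 genes higher and 359 lower. Counted anew over all tested genes, the calls were 239 higher and 213 lower with no filter on dim genes. They were 183 and 134 with the probe sets averaged, 2 and 2 with the stromal covariate, and 192 to 494 and 180 to 306 with 1 array left out. Median centring gave 214 higher (45.1% of calls in place of 58.3%), and fold with unadjusted p gave 870 higher. Of the 8 genes, 1 was called lower without the filter, with averaging, with median centring or with the acinar covariate, 0 with the stromal covariate or the fold threshold, and 1 to 2 with 1 array left out. Of the 18 enzymes the call fell to 0 in these same 6 settings, was 2 with quantile normalization, and 0 to 1 with 1 array left out. Without the dimmer 50% of genes 15 of the enzymes were tested and 2 were called. By the t-test 2 probe sets of the 8 genes were called, of 555 in the whole table. *Hmgcs1* lost its call at -0.35 (limma adjusted p = 0.0609) without the filter, -0.32 (0.194) averaged, -0.39 (0.0827) median-centred, -0.28 with the stromal covariate, -0.35 (0.0501) with the acinar covariate and -0.36 to -0.32 with 1 array left out. *Insig1* lost it with the stromal covariate (-0.66, limma adjusted p = 0.234).

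Among the genes screened for outliers, the sign turned under the stromal covariate for *Srebf2* (0.086), *Sqle* (0.040), *Idi1* (0.26), *Cyp51* (0.18), *Mvd* (0.095), *Fdps* (1.13), *Mvk* (0.45), *Msmo1* (0.16), *Nsdhl* (0.28), *Lbr* (0.22), *Hnmt* (0.068), *Ctnnbip1* (0.11) and *Pkn2* (0.10). With averaging it turned for *Fdps* (0.22). With 1 array left out *Mvk* ran from -0.30 to 0.093 (above 0 without WT replicate 2 or KO replicate 4) and *Pmvk* from -0.20 to 0.040 (above 0 without WT replicate 2 or 4 or KO replicate 1). The causes were not tested.

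Samples of the 2 groups share replicate numbers, but deviations of same-numbered samples correlated at only -0.04, 0.09, 0.12 and -0.03, so the numbers were not taken as pairs. With a replicate block, which leaves WT replicate 5 without a partner, 33 genes were called higher and 28 lower, none of the 8 genes among them by limma (*Hmgcs1* -0.36, *Insig1* -0.53, adjusted p = 0.147 and 0.0870), and 0 of the 18 enzymes. The calls of *Lpin1* (0.97, limma adjusted p = 0.0741), *Srebf1*, *Vldlr*, *Abcg1*, *Apoe* and *Rptor* were lost with the block and also with the stromal covariate.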
